A study of Homo sapiens with 10 samples.

Results

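The transcripts of 10 growth factor receptors were followed through acquired resistance to combined BRAF and MEK inhibition in melanoma cells. The members were 9 receptor tyrosine kinases, EGFR, ERBB2, ERBB3, AXL, MET, KIT, PDGFRA, PDGFRB and FGFR1, together with NGFR, the low-affinity neurotrophin receptor. They were taken by gene symbol, from a list drawn up with earlier results of these data known, and make up 10 of the 57955 genes in the deposited tables. RNA-seq had been run on 5 BRAF V600E melanoma cell lines and on the resistant line derived from each, with 1 library per line and state, so that no value within a line has a replicate. WM983A, WM278 and WM902B are of primary and WM983B and WM1617 of metastatic origin, and the 5 lines come from 3 patients, WM983A and WM983B from the same patient and WM278 and WM1617 from another. The sensitive group held the 5 untreated parental lines. The resistant group held the 5 lines grown with encorafenib (a BRAF inhibitor) plus binimetinib (a MEK inhibitor), starting at 1 nM and reaching, within 3 to 5 months, the 200 nM at which they were then held. Resistance and the presence of both drugs cannot be told apart in this design, and each resistant line is a single derivation.

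Receptor tyrosine kinases sit in the cell membrane, pair up when a ligand binds, phosphorylate each other and recruit adaptors that switch on the RAS-RAF-MEK-ERK and PI3K-AKT cascades. In BRAF-mutant melanoma the oncogene drives ERK directly, and signalling from receptors is a known route by which cells regain ERK or AKT activity under BRAF and MEK inhibitors. ERBB3 belongs to the neural crest and melanocyte lineage programme under SOX10 and MITF, and NGFR marks neural crest-like melanoma cells. High EGFR, AXL and PDGFRB are known from dedifferentiated, mesenchymal-like melanoma cells.

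Depth was similar in all 10 libraries, at 13693922 to 18033247 counts, and levels are given as counts normalized by TMM (trimmed mean of M-values, edgeR) to a common library size. A fold within a line is the ratio of these levels, its 95% interval covers counting error only, and a gene with at most 3 counts in both libraries of a line was not compared there. All members but KIT passed the filter on low counts, so 9 of 10 were among the 17288 genes tested. SOX10, of the melanocyte lineage, was at 4664 to 5228 normalized counts in all 5 sensitive lines. Sensitive WM278 held MITF at 163, against 4013 to 9537 in the other 4 lines. PMEL (67.2), DCT (14.3), MLANA (11.5), TYR (8.58) and TYRP1 (3.82) were also low there. PAX3, at 477 reads, lay within the range of the other sensitive lines (370 to 735), and S100B (1480 reads) was above sensitive WM1617 (575). TYRP1 was also low in sensitive WM1617 (15 reads) and WM902B (11 reads), and MLANA in sensitive WM983B (14 reads). The summed level of 5 leukocyte markers stayed between 1.9 and 80.2, of 3 endothelial markers between 1.0 and 41.2 and of 3 epithelial markers between 4.1 and 182.7 over all libraries. CD3E and CDH5 did not exceed 3 counts in any library, and the top of the epithelial range was EPCAM at 169 in resistant WM983A. The resistant WM983A library stands apart, because across the tested genes its log2 levels correlated more closely with sensitive WM902B (r = 0.813) than with sensitive WM983A (r = 0.787), while the other 4 resistant libraries were closest to their own line (r = 0.869 to 0.976). Pooled results of the members are therefore also given without the WM983A line. Fewer expressing cells and less transcript per cell cannot be told apart in these bulk libraries.

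Which receptors dominated a library was examined first, with counts divided by the summed exon length of each gene. NGFR led in sensitive WM983A, WM983B and WM902B with 80.0%, 34.7% and 74.0% of the per-kilobase counts of the 10 receptors. AXL led in sensitive WM278 with 80.4%, and ERBB3 in sensitive WM1617 with 41.5%. In the resistant libraries AXL was in front in 4 of 5 lines, with 66.5% in WM983A, 42.5% in WM983B, 57.6% in WM278 and 42.9% in WM902B, and ERBB3 was in front in WM1617 with 56.6%. The leading receptor thus differed between the states in WM983A, WM983B and WM902B and was the same in WM278 and WM1617. The second place among the resistant libraries was held by MET in WM983A (19.0%) and WM983B (16.8%), by PDGFRB in WM902B (35.3%), by ERBB2 in WM278 (18.1%) and by FGFR1 in WM1617 (13.9%). The summed per-kilobase level of the 10 receptors ranged from 353 in resistant WM1617 to 7310 in sensitive WM983A. These shares rest on all annotated exons of a gene, so the ranks depend on the summed exon length. That length was 5134 bases for AXL, 7224 for MET, 15941 for EGFR and 17201 for FGFR1. In resistant WM983B FGFR1 had more reads (3085) than MET (1895). Of the exon length, 27.2% for NGFR and 16.1% for PDGFRA overlap exons of other genes. For NGFR these include NGFR-AS1 on the opposite strand, and whether the counting used strand is not stated in the sources used here.

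**Figure D1:**
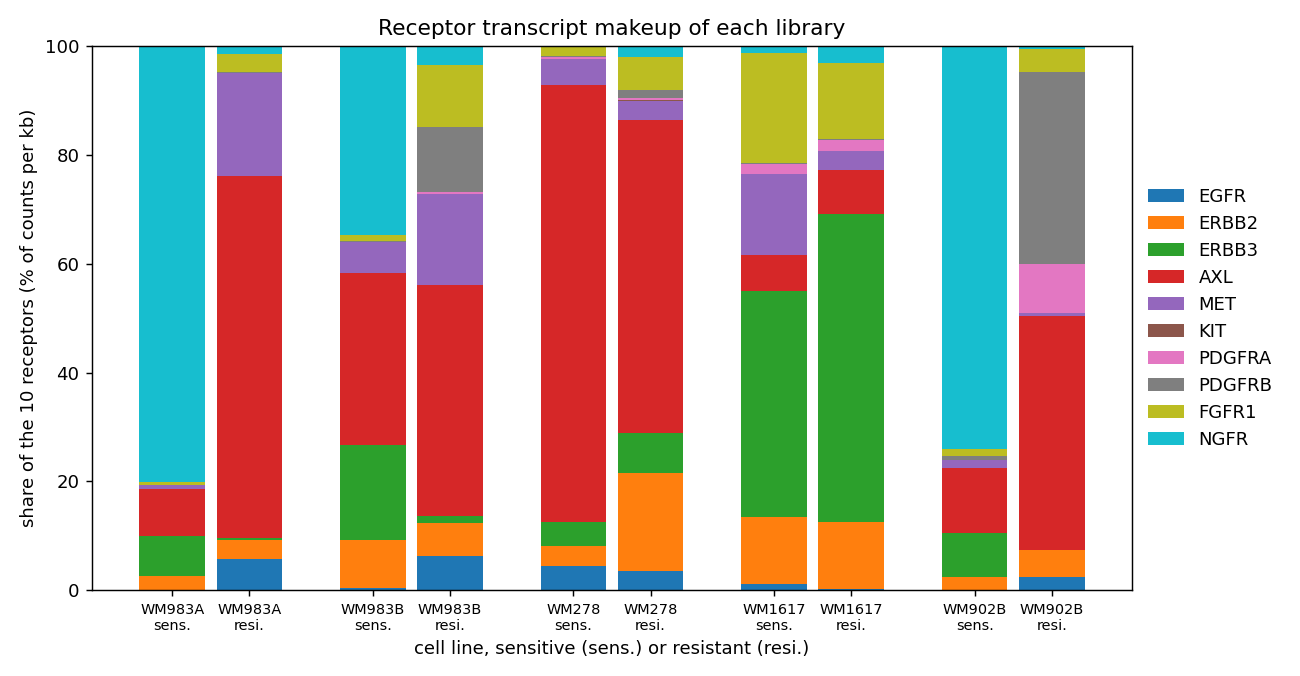
Share of each of the 10 receptors in their summed counts per kilobase of exon (%, y axis) in the sensitive and resistant library of each line (x axis), 1 library per bar. NGFR fills 80.0% of sensitive WM983A and 1.52% of the resistant library, and AXL is the tallest segment in 4 of the 5 resistant libraries.

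Change within lines was wide. Of the 50 combinations of member and line, 33 differed by at least 2-fold between resistant and sensitive libraries. In WM983A 4 of 10 members were at least 2-fold higher and 3 lower, against 16.8% and 19.4% of all genes tested. In WM983B 4 were higher and 3 lower, against 16.1% and 11.1% of all genes. In WM278 4 were higher and 4 lower, against 11.9% and 6.91%. In WM902B 5 were higher and 3 lower, against 15.3% and 11.9%. Both counts of higher members include KIT, which stood at 1 and 25 reads in WM278 and 2 and 9 in WM902B and is not among the genes behind these percentages. WM1617 had 1 higher and 2 lower, against 2.67% and 3.5%. None of the 10 members (0 of 10) had 1 direction in all 5 lines, which 11.1% of all genes tested did, and for none (0 of 10) did the sensitive and resistant levels separate without overlap, as they did for 0.758% of all genes. The standard deviation of the 5 within-line log2 ratios had a median of 2.78 over the 9 tested members, against 0.64 over all genes tested.

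**Figure D2:**
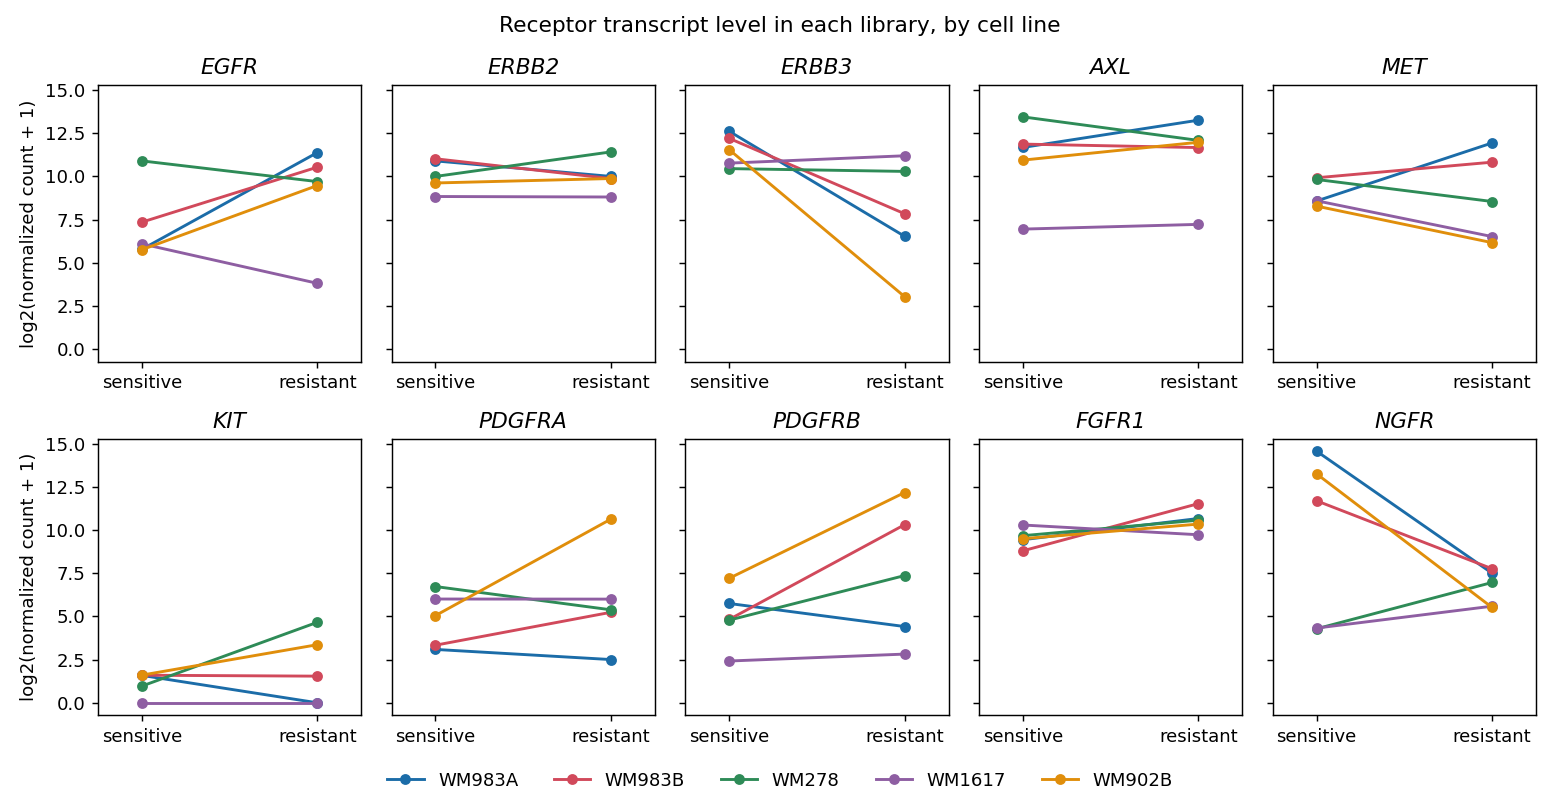
Level of each receptor as log2(normalized count + 1) on the y axis in the sensitive and resistant library of each line (x axis), with 1 point per library and 1 coloured line per cell line. EGFR, ERBB3 and NGFR lines run steeply in WM983A, WM983B and WM902B, and FGFR1 is higher in 4 of 5 resistant libraries.

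In the pooled comparison of 5 resistant with 5 sensitive libraries, 3 members passed an unadjusted p of 0.05 with at least a 2-fold change by edgeR's quasi-likelihood test. PDGFRB and FGFR1 were higher, as were 3.53% of all genes at this threshold, and NGFR was lower, as were 0.885%. No member passed after Benjamini-Hochberg adjustment over all genes, nor did any other gene (0 of 17288, 0.0%), with 1235 genes at an unadjusted p of at most 0.05 at any fold. Adjusted p-values of the members ran from 0.63 to 0.993. DESeq2's Wald test, in contrast, gave an adjusted p of 0.00219 for NGFR and 0.0449 for PDGFRB and 106 genes in all, and limma-voom gave 0. Limma-voom passed neither NGFR (log2 fold change -2.97, unadjusted p = 0.238) nor PDGFRB (2.39, unadjusted p = 0.255), and ERBB3 passed by limma-voom (-3.69, unadjusted p = 0.0133) and by DESeq2 (-2.12, unadjusted p = 0.0332). With the cell line as a replicate block none of the 10 members passed the unadjusted threshold (0 of 10), which 5.54% of all genes tested did. Without the WM983A line 3 members passed, without WM983B 1 (NGFR) and without WM278 5, EGFR and PDGFRA being the added ones.

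**Figure D3:**
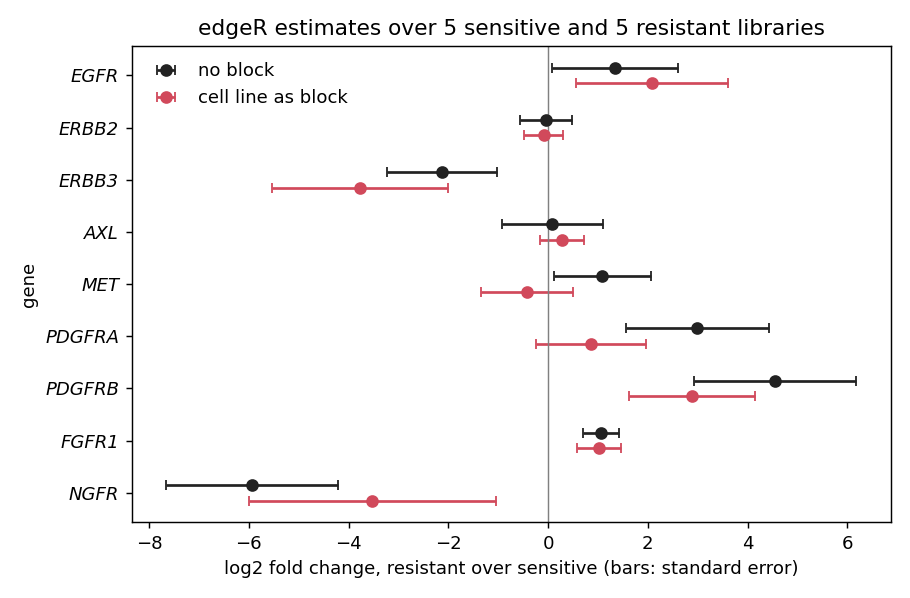
Log2 fold change of resistant over sensitive libraries (x axis) for the 9 tested receptors (y axis) by edgeR without a block and with the cell line as a block; bars are standard errors. NGFR lies at -5.93 without the block and at -3.52 with it, and the bars of ERBB2 and AXL cross 0 in both fits.

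EGFR, the receptor of EGF, TGFA, amphiregulin (AREG) and epiregulin (EREG), was among the most variable members. EGFR (ENSG00000146648) lies on chromosome 7 from 55019017 to 55211628 on the plus strand (GRCh38, GENCODE 44). Its normalized count in the sensitive lines was 53.7 in WM983A, 162 in WM983B, 53.0 in WM902B, 1907 in WM278 and 67.5 in WM1617. In the resistant lines it was 2657 in WM983A, 1480 in WM983B, 709 in WM902B, 830 in WM278 and 13.1 in WM1617. EGFR was thus 49.2-fold higher (95% interval 37.6 to 65.7) in WM983A, 9.12-fold higher (7.75 to 10.8) in WM983B and 13.4-fold higher (10.1 to 18.2) in WM902B. It was 2.30-fold lower in WM278, the only sensitive line above 162, and 5.16-fold lower in WM1617, where 62 and 15 reads were counted. The 2 groups overlapped, and the within-line log2 ratios ran from -2.28 in WM1617 to 5.60 in WM983A. The pooled edgeR log2 fold change was 1.34 (SE 1.27, unadjusted p = 0.314 and adjusted p = 0.861). This value depended on WM278: without that line the log2 fold change was 3.85 with an unadjusted p of 0.0103, and without WM983A it was 0.47 with an unadjusted p of 0.744.

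The ligands of EGFR followed their own course. AREG was counted 11 times in sensitive and 2783 times in resistant WM983A, a 295-fold higher level, and EREG 0 and 3357 times, which is at least 1306-fold higher against a floor of 3 counts. In no other library did EREG exceed 24.4 normalized counts or AREG 86.4. The line with the highest EGFR after resistance therefore also held the highest levels of both ligands. TGFA was 4.11-fold higher in WM983A and 2.23-fold higher in WM1617, and lower by 18.0-fold in WM983B, 2.05-fold in WM278 and 526-fold in WM902B. In WM902B TGFA, AREG (26 and 1 reads) and HBEGF (by 12.8-fold) were lower in the resistant library while the receptor was higher. EREG (24 and 13 reads) and BTC (8 and 5 reads) were also lower there, and EGF was 1.57-fold higher. EGF stayed between 19.1 and 430, BTC between 1.09 and 73.4 and EPGN at or below 19.9 normalized counts. ERRFI1 (MIG6), a feedback inhibitor of EGFR, was 9.87-fold higher in WM983A and 8.65-fold lower in WM278 and 14.9-fold lower in WM902B. LRIG1, which promotes the degradation of EGFR family receptors, was 46.4-fold lower in WM983A and 3.22-fold higher in WM983B.

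**Figure D4:**
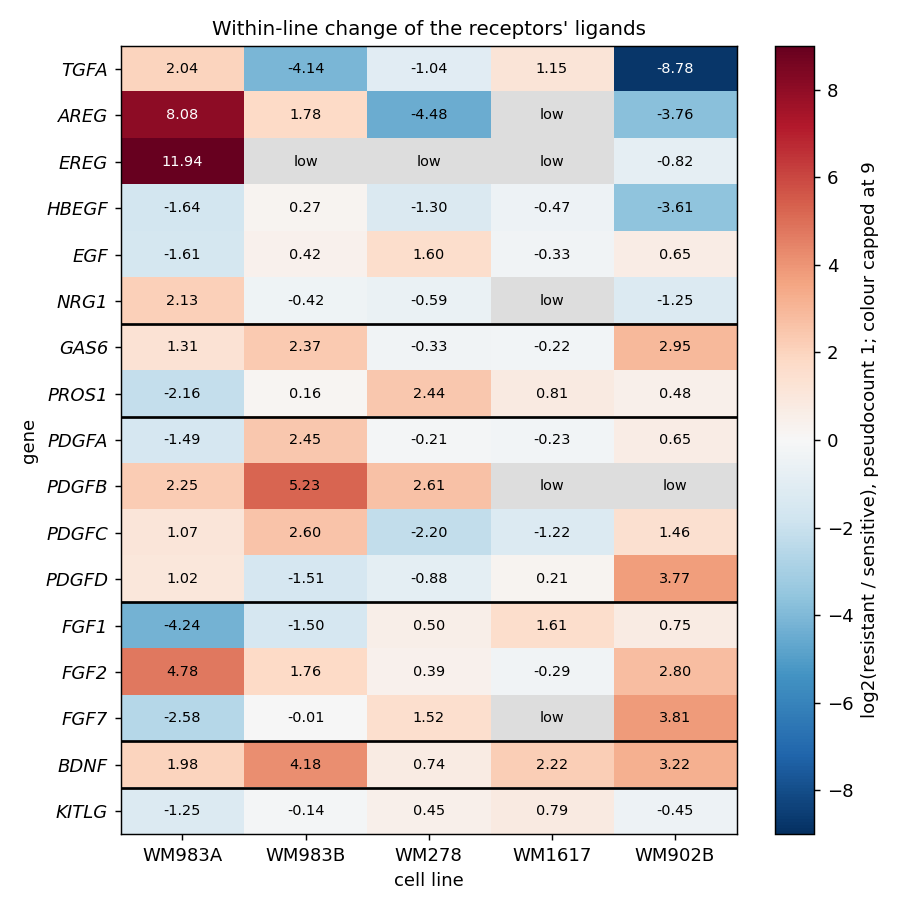
Within-line log2 ratio of resistant over sensitive libraries (colour, values printed) for ligands of the receptors (rows) in the 5 lines (columns), grouped by receptor family. Grey cells marked low have at most 3 counts in both libraries. BDNF is higher in all 5 lines, by 0.74 to 4.18, and AREG and EREG stand out in WM983A with 8.08 and 11.94.

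Sequence before the annotated start is shown for the 3 receptors that either gained most in several lines (EGFR, PDGFRB) or led the resistant libraries (AXL), as the sequence context of these genes. Which start was used in any library was not measured. RefSeq promoter entries (GRCh38.p14) matched 7 of the 10 members, with 10 entries in all. ERBB3, NGFR and FGFR1 had no entry. The stretches lie at chr7:55018767-55019016 on the plus strand, chr19:41218973-41219222 on the plus strand and chr5:150155873-150156095 on the minus strand, of 250, 250 and 223 bases, 5′ to 3′. Capitals mark the GC box letters GGGCGG on either strand, the binding letters of SP1-type factors.
EGFR: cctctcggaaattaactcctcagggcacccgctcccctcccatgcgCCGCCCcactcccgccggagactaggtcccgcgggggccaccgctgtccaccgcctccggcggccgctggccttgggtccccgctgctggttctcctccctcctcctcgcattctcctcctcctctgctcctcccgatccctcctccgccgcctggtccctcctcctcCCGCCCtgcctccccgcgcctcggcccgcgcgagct
AXL: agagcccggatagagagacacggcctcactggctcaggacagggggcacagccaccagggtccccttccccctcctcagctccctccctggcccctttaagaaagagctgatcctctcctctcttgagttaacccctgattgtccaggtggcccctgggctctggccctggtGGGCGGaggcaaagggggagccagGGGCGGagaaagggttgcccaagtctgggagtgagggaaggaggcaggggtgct
PDGFRB: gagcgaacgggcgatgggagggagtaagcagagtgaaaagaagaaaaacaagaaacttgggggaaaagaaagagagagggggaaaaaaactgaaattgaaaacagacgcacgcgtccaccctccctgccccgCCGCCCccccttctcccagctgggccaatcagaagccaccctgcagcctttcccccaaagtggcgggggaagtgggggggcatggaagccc

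EGFR and AXL held 2 matches each and PDGFRB 1, and 42.6% of all 35116 promoter entries held at least 1 in the 250 bases before the start. The AP-1 letters TGANTCA (in 6.57% of all entries), the TEAD letters GGAATG (11.9%) and the SOX letters ACAAAG (13.7%) had no match in these 3 stretches, searched on both strands. The second RefSeq start of EGFR had 2 AP-1 matches and 1 TEAD match, and that of AXL 1 TEAD and 1 SOX match. These matches describe letters only and were not tested against the levels.

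ERBB2 lacks a ligand of its own and acts as the partner of the other ERBB receptors. ERBB2 (ENSG00000141736) lies on chromosome 17 from 39687914 to 39730426 on the plus strand. Its normalized count in the sensitive lines was 1905 in WM983A, 2075 in WM983B, 785 in WM902B, 1020 in WM278 and 456 in WM1617, and in the resistant lines 1021, 937, 938, 2734 and 447 in the same order. ERBB2 was 2.68-fold higher in WM278 and 2.21-fold lower in WM983B, and lay within 2-fold in the other 3 lines. The pooled log2 fold change was -0.04 (SE 0.52, edgeR unadjusted p = 0.942 and adjusted p = 0.993) and turned to 0.22 without WM983A and to 0.30 without WM983B.

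ERBB3, a neuregulin receptor with a weak kinase that signals by recruiting PI3K, was well expressed in every sensitive line and far lower in 3 resistant ones. ERBB3 (ENSG00000065361) lies on chromosome 12 from 56076799 to 56103505 on the plus strand. The sensitive levels were 6265 in WM983A, 4711 in WM983B, 2995 in WM902B, 1397 in WM278 and 1741 in WM1617. The resistant levels were 91.5 in WM983A, 228 in WM983B, 7.21 in WM902B, 1249 in WM278 and 2340 in WM1617. ERBB3 was 68.8-fold lower (95% interval 55.0 to 87.1) in WM983A, 20.7-fold lower (18.1 to 23.6) in WM983B and 416-fold lower (201 to 1034) in WM902B, where 7 reads remained of 2947. In WM278 and WM1617 the ratio stayed within 2-fold. The spread grew from an SD of 0.92 log2 units among sensitive to 3.24 among resistant libraries. An exact permutation test of the mean log2 levels gave p = 0.0317 (two-sided, 5 against 5, smallest possible 0.00794, not adjusted for the 10 members tested). That test exchanged libraries freely and ignored the pairing of each resistant line with its sensitive line. The edgeR log2 fold change was -2.13 (SE 1.11, unadjusted p = 0.083 and adjusted p = 0.732). Without WM983A the edgeR value was -1.51 with an unadjusted p of 0.24, and without WM1617 it was -3.29 with 0.0278.

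Among the neuregulins, the ligands of ERBB3 and ERBB4, NRG1 was highest in WM278 (1355 sensitive, 897 resistant) and in resistant WM983A, where it was 4.38-fold higher at 1894. NRG1 stayed at or under 11.2 in both WM1617 and WM902B libraries. NRG2 was highest in sensitive WM1617 at 389, and NRG3 in WM1617, at 340 in the sensitive and 351 in the resistant library. NRG4 did not exceed 34.8 anywhere. ERBB4, the remaining family member, was above 10.5 only in WM278, at 40.6 sensitive and 128 resistant.

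AXL, the GAS6 receptor of the TAM family, was among the best expressed members outside WM1617. AXL (ENSG00000167601) lies on chromosome 19 from 41219223 to 41261766 on the plus strand. The sensitive lines held 3267 in WM983A, 3737 in WM983B, 1965 in WM902B, 11149 in WM278 and 123 in WM1617, and the resistant lines 9755, 3252, 4021, 4339 and 148 in the same order. AXL was 2.99-fold higher (2.87 to 3.11) in WM983A and 2.05-fold higher (1.94 to 2.16) in WM902B, 2.57-fold lower in WM278, and within 2-fold in WM983B and WM1617. Differences between lines were far larger than those between states, and the pooled log2 fold change was 0.09 (SE 1.01, edgeR unadjusted p = 0.932 and adjusted p = 0.992), or -0.53 without WM983A and -0.06 without WM902B. Its ligand GAS6 was 2.49-fold higher in WM983A, 5.22-fold higher in WM983B and 8.28-fold higher in WM902B, the last from 6 to 49 reads. The other TAM ligand PROS1 was expressed in all libraries (195 to 1532), with 2.44 log2 units more in resistant WM278 and a value lower by 2.16 in WM983A. TYRO3, the second TAM receptor, was 8.26-fold lower in WM983A, 3.30-fold lower in WM983B and 3.13-fold lower in WM902B (edgeR log2 fold change -1.05, unadjusted p = 0.0362). MERTK, the third, was 47.4-fold lower in WM902B and 5.15-fold higher in WM983A, from 17 to 75 reads.

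MET, the receptor of hepatocyte growth factor, differed in direction between lines. MET (ENSG00000105976) lies on chromosome 7 from 116672196 to 116798377 on the plus strand. The sensitive levels were 380 in WM983A, 967 in WM983B, 310 in WM902B, 904 in WM278 and 384 in WM1617, and the resistant levels 3912, 1809, 70.8, 373 and 90.6 in the same order. MET was 10.3-fold higher (9.25 to 11.5) in WM983A and 1.87-fold higher in WM983B, both lines of the same patient. It was 2.43-fold lower in WM278, 4.24-fold lower in WM1617 and 4.36-fold lower in WM902B. The edgeR log2 fold change of 1.09 (SE 0.97, unadjusted p = 0.29 and adjusted p = 0.853) rested on WM983A, without which it was -0.13, and turned to -0.43 with the replicate block. HGF itself was at most 1.17 normalized counts except in resistant WM902B (25.7, 25 reads against 0). MST1R (RON), the other receptor of the family, was 57.2-fold higher in WM983A, from 4 to 196 reads.

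KIT, the stem cell factor receptor of normal melanocytes, was close to absent. KIT (ENSG00000157404) lies on chromosome 4 from 54657267 to 54740783 on the plus strand. It had 0 to 2 reads in every sensitive library and in resistant WM983A, WM983B and WM1617. In WM278 1 read stood against 25, a ratio of 25.4 with a 95% interval of 4.16 to 1044, and in WM902B 2 reads against 9, a ratio of 4.56 whose interval (0.944 to 43.4) includes no difference. Its ligand KITLG was expressed in all 10 libraries at 89.7 to 1403.

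The platelet-derived growth factor receptors mark mesenchymal cells and were low in all sensitive lines. PDGFRB (ENSG00000113721) lies on chromosome 5 from 150113839 to 150155872 on the minus strand. PDGFRB stood at 52.7 in WM983A, 27.3 in WM983B, 146 in WM902B, 26.5 in WM278 and 4.34 in WM1617 before resistance, and at 20.3, 1266, 4600, 164 and 6.05 after it, in the same order. It was 46.6-fold higher (31.8 to 70.9) in WM983B, 31.4-fold higher (26.6 to 37.4) in WM902B and 6.14-fold higher (4.10 to 9.51) in WM278. In WM983A it was 2.67-fold lower (1.52 to 4.92), and in WM1617 4 and 7 reads were counted. The edgeR log2 fold change was 4.55 (SE 1.62, unadjusted p = 0.0178 and adjusted p = 0.632). With the replicate block it was 2.89 with an unadjusted p of 0.0568, without WM983B 4.38 with 0.0582, and without WM983A 4.88 with 0.0236. The exact permutation test of log2 levels, which weighs low lines equally, gave p = 0.262.

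PDGFRA (ENSG00000134853) lies on chromosome 4 from 54229280 to 54298245 on the plus strand. PDGFRA was at 7.50, 9.07, 32.0, 105 and 63.2 normalized counts in sensitive WM983A, WM983B, WM902B, WM278 and WM1617, and at 4.66, 36.7, 1585, 40.6 and 63.0 in the resistant lines in the same order. Only resistant WM902B exceeded 105, at 48.8-fold (34.4 to 71.6) over its sensitive line. PDGFRA was higher by 1.91 log2 units in WM983B on 9 and 38 reads, and 2.58-fold lower in WM278. The edgeR log2 fold change of 2.99 (SE 1.43, unadjusted p = 0.062 and adjusted p = 0.704) rested on WM902B and was -0.34 without it, and 3.04 with an unadjusted p of 0.062 without WM983A.

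Of the 4 PDGF ligands, PDGFB was 41.2-fold higher in WM983B, 6.11-fold in WM278 and 4.95-fold in WM983A, and reached 3071 in resistant WM278. PDGFB had an unadjusted p of 0.202 by edgeR and of 0.0232 with the replicate block. PDGFA was 5.49-fold higher in WM983B and 2.81-fold lower in WM983A. PDGFC was lower by 2.20 log2 units in WM278 and reached 541 in resistant WM983B against 88.6, and PDGFD was 13.9-fold higher in WM902B. WM983B and WM278 thus had more PDGFRB and more PDGFB transcript in the resistant than in the sensitive library, and WM902B more of both receptors and of PDGFD. The fibroblast marker COL1A1, which encodes a chain of type I collagen, was higher in the same 3 lines, by 224-fold in WM983B, 14.4-fold in WM278 and 108-fold in WM902B, where it reached 18770, and also in WM983A, by 7.59-fold (edgeR log2 fold change 6.11, unadjusted p = 0.00558; 6.16 and 0.00931 without WM983A). LUM and DCN, fibroblast proteoglycans, followed it in some of these lines only. In WM278 LUM was at least 8.81-fold higher (0 and 26 reads) and DCN 5.76-fold higher (3 and 17 reads). LUM was 137-fold lower in WM983A and within 2-fold in WM983B and WM902B. DCN was lower in WM983A (42 reads against 0), 6.86-fold lower in WM983B on 13 and 2 reads and 4.46-fold higher in WM902B. THY1 was 5.45-fold lower in WM983A. Over the 6 fibroblast markers the summed level was 135.6 to 1192 in sensitive and 113.6 to 19560 in resistant libraries. COL3A1 was at 284 in resistant WM902B against 0 in the sensitive library, and had 25 reads against 0 in WM983B and 15 against 0 in WM278. COL1A2 did not exceed 12.4, and THY1 was at or under 3.45 in both WM902B libraries. The part of these markers in the PDGFRB result was not tested.

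FGFR1, a receptor of fibroblast growth factors, was evenly expressed and differed least among the 3 members past the unadjusted threshold. FGFR1 (ENSG00000077782) lies on chromosome 8 from 38400215 to 38468834 on the minus strand. Its sensitive levels were 692 in WM983A, 443 in WM983B, 721 in WM902B, 814 in WM278 and 1250 in WM1617, and its resistant levels 1622, 2944, 1296, 1516 and 845 in the same order. FGFR1 was higher in 4 of 5 lines, by 2.34-fold (2.14 to 2.57) in WM983A, 6.66-fold (6.02 to 7.37) in WM983B, 1.86-fold in WM278 and 1.80-fold in WM902B, and 1.48-fold lower in WM1617. The edgeR log2 fold change was 1.07 (SE 0.36, unadjusted p = 0.0135 and adjusted p = 0.63), and the exact permutation test gave p = 0.0159 (two-sided, smallest possible 0.00794, pairing of lines ignored, not adjusted for the 10 members). With the replicate block it was 1.02 with an unadjusted p of 0.0562, without WM983B 0.59 with 0.075, and without WM983A 1.03 with 0.0471. Among the FGF ligands, FGF2 was 27.8-fold higher in WM983A, 3.41-fold in WM983B and 7.16-fold in WM902B, and was already at 1527 in sensitive WM278. FGF1 was lower by 4.24 log2 units in WM983A. FGF5 was 8.19-fold higher in WM983B and 4.28-fold in WM983A, and FGF7 14.5-fold higher in WM902B. FGF9 and FGF10 did not exceed 1.94 and FGF18 did not exceed 9.34 normalized counts. Of the other FGF receptors, FGFR3 did not exceed 283, FGFR4 ranged from 22.0 to 899 and FGFR2 at most 96.0.

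NGFR, which binds all neurotrophins and marks neural crest-like melanoma cells, showed the widest range of any member. NGFR (ENSG00000064300) lies on chromosome 17 from 49495293 to 49515008 on the plus strand. It stood at 24223 in sensitive WM983A, 3307 in WM983B and 9756 in WM902B, and at 18.4 in WM278 and 19.0 in WM1617. In the resistant libraries it was 180 in WM983A, 215 in WM983B, 44.8 in WM902B, 124 in WM278 and 47.2 in WM1617. NGFR was 135-fold lower (95% interval 115 to 159) in WM983A, 15.3-fold lower (13.4 to 17.6) in WM983B and 215-fold lower (160 to 297) in WM902B. It was 6.80-fold higher (4.18 to 11.7) in WM278, on 19 and 127 reads, and 2.41-fold higher (1.39 to 4.36) in WM1617, on 18 and 54 reads. All 5 resistant libraries thus lay between 44.8 and 215, below the 3 high and above the 2 low sensitive lines, and the SD of log2 levels was 4.96 among sensitive and 1.06 among resistant libraries. The edgeR log2 fold change of -5.93 (SE 1.73, unadjusted p = 0.00588 and adjusted p = 0.63) was set by the 3 high lines. With the replicate block it was -3.52 with an unadjusted p of 0.198, without WM983A -4.92 with 0.0278, and the exact permutation test of log2 levels gave p = 0.206.

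BDNF, a ligand of NGFR and of NTRK2 (TrkB), was the single tested ligand that was higher in the resistant library of every line, by 4.03-fold in WM983A, 18.5-fold in WM983B, 1.68-fold in WM278, 4.75-fold in WM1617 and 9.34-fold in WM902B. Its edgeR log2 fold change was 2.11 (SE 0.96, unadjusted p = 0.0503), 2.48 with the replicate block (unadjusted p = 0.00242, adjusted p = 0.461) and 2.12 without WM983A (unadjusted p = 0.0757). By edgeR it was 1.67 without WM983B (unadjusted p = 0.171), 1.79 without WM902B (0.159), 2.11 without WM1617 (0.0427) and 3.35 without WM278 (0.00535). DESeq2 gave 2.12 (unadjusted p = 0.0165) and limma-voom 2.45 (unadjusted p = 0.0326). NTF3 did not exceed 0.95 and NTF4 did not exceed 9.53. NTRK2 was at most 24.8 except in resistant WM278, where it was 474 (19.1-fold higher), and NTRK3 did not exceed 44.5. SORT1 (sortilin), which pairs with NGFR in the receptor for proneurotrophins, was lower by 3.17 log2 units in WM983A, 2.06 in WM983B and 0.91 in WM902B, and higher by 1.51 in WM278. LINGO1, another NGFR partner, was 21.5-fold lower in WM983A, 5.39-fold lower in WM983B and at least 9.21-fold lower in WM902B (28 reads against 0).

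The melanocyte lineage genes were set beside the receptors because ERBB3 is part of that programme and NGFR marks neural crest-like melanoma cells. SOX10, the lineage transcription factor, was at 98.4 in resistant WM983A, 192 in WM983B and 10.1 in WM902B, against 4165 in WM278 and 5136 in WM1617. The within-line log2 ratio of SOX10 was -5.71, -4.60, -8.77, -0.22 and -0.03 in WM983A, WM983B, WM902B, WM278 and WM1617. The log2 ratio of ERBB3 in the same order was -6.08, -4.36, -8.51, -0.16 and 0.43. MITF was lower by 3.49 log2 units in WM983A, 2.83 in WM983B and 0.87 in WM902B. PMEL, TYR, DCT and S100B were each lower by at least 3.31 log2 units in these 3 lines. The other 3 lineage genes differed between them: MLANA was 7.38-fold lower in WM983A and 195-fold lower in WM902B but 4.26-fold higher in WM983B (14 and 63 reads), TYRP1 was lower in WM983A and WM983B but 2.03-fold higher in WM902B (11 and 22 reads), and PAX3 was 37.3-fold lower in WM983A and within 2-fold in WM983B and WM902B. In the 3 lines where SOX10, ERBB3 and NGFR were lower, EGFR was 9.12 to 49.2-fold higher, and in the 2 lines that kept SOX10, EGFR was lower and NGFR higher. This alignment holds for 5 pairs of libraries from 3 patients, and its extent was not tested. Neither SOX10 (edgeR log2 fold change -1.37, unadjusted p = 0.277) nor MITF (-1.02, unadjusted p = 0.359) passed the pooled edgeR test, and without WM983A the values were -1.04 (unadjusted p = 0.44) and -0.71 (unadjusted p = 0.581). SOX10 did pass by limma-voom (-3.80, unadjusted p = 0.0213), but not by DESeq2 (-1.37, unadjusted p = 0.202) or with the replicate block (-3.85, unadjusted p = 0.0584). Of the 9 lineage genes TYRP1 passed by edgeR (-5.21, unadjusted p = 0.0158; 0.0416 without WM983A, 0.114 without WM983B and 0.452 with the replicate block), and with the block TYR did (-3.92, unadjusted p = 0.0292). The count of 1 became 5 without WM1617, 4 in the primary lines and 0 without WM983B.

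**Figure D5:**
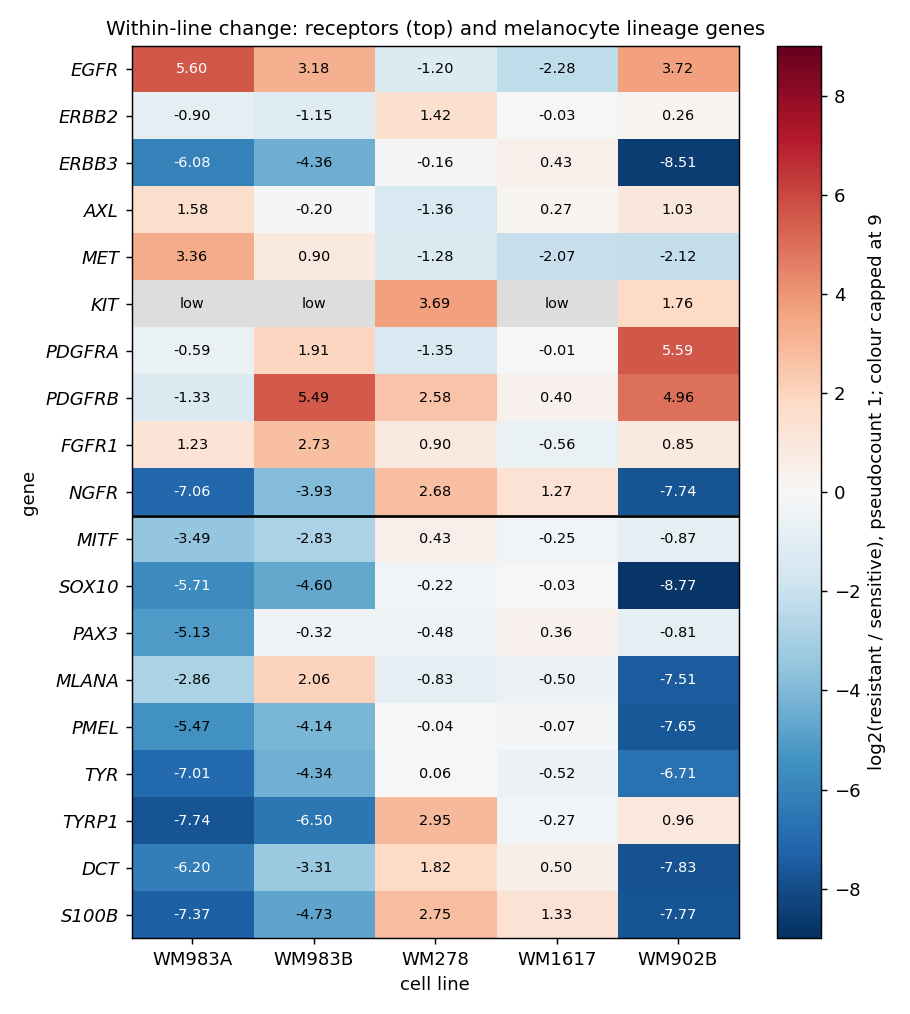
Within-line log2 ratio of resistant over sensitive libraries (colour, values printed) for the 10 receptors above and 9 melanocyte lineage genes below the black line (rows) in the 5 lines (columns), with at most 3 counts in both libraries shown as low. ERBB3, NGFR and SOX10 share deep blue cells in WM983A, WM983B and WM902B, where EGFR is red.

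The genes whose 5 within-line log2 ratios came closest to those of a member were found by the mean absolute difference over the 5 lines among 17288 genes. SOX10 and PMEL were nearest to ERBB3, at 0.27 and 0.46 log2 units. S100B, a glial and neural crest lineage gene, was nearest to NGFR, at 0.25. PCED1B and ZDHHC8P1 were nearest to EGFR (0.66 and 0.71), AOC2 and MCU to AXL (0.26 and 0.29), and MCUB and ADRA2C to MET (0.64 and 0.65). PCOLCE, which assists the processing of fibrillar procollagen, was second to PDGFRA at 0.68 after KIAA1644 (0.67), and PCBP3 and LBH were nearest to PDGFRB (0.52 and 0.77).

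Lines were also compared in pairs over members that passed 2-fold in both. In WM983A and WM983B, of the same patient, 4 members moved the same way (EGFR, ERBB3, FGFR1 and NGFR) and PDGFRB moved oppositely, out of 7 in each line. Of all genes past 2-fold in both lines, 74.8% had the same direction. WM278 and WM1617, of another patient, shared the direction of EGFR, MET and NGFR, all 3 of the members past 2-fold in WM1617 and 3 of the 8 in WM278, against 40.4% of all genes. WM983B and WM902B, from different patients, agreed in all 5 shared members (EGFR, ERBB3, PDGFRA, PDGFRB and NGFR), out of 7 and 8, against 87.3% of all genes. WM983A and WM278, both of primary origin, moved oppositely in all 5 members past 2-fold in both (EGFR, AXL, MET, PDGFRB and NGFR). Of all genes, 54.1% had the same direction. WM983B and WM278 agreed in PDGFRB and moved oppositely in 4 members, against 76.0% of all genes in the same direction. WM278 and WM902B agreed in 3 and moved oppositely in 4, against 78.2%. WM983A and WM902B agreed in 4 and moved oppositely in 2, against 67.2%. The other pairs, all with WM1617, are not reported here.

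Of 84 tested genes in the other lists of the pathway 3 passed the pooled test, or 3.57%, against 3.53% higher plus 0.885% lower over all genes. Among 30 ligands of the members, 19 were tested and 0 passed an unadjusted p of 0.05 with a 2-fold change, and with the replicate block PDGFB and BDNF did. BDNF also passed by DESeq2 and by limma-voom. Of 31 other receptor tyrosine kinases 14 were tested and TYRO3 was lower. Of 23 adaptors and kinases downstream of receptors 22 were tested and SHC3, an adaptor of neuronal receptors, was higher (log2 fold change 2.96, unadjusted p = 0.0338; 0.279 with the replicate block), from 4 to 686 reads in WM983A. IRS1, an adaptor of insulin and IGF receptors, missed the threshold in the pooled edgeR test and passed with the block (log2 fold change 1.11, unadjusted p = 0.0305). It also passed by DESeq2 (unadjusted p = 0.0435) and by edgeR in the primary lines (0.0377) and without WM1617 (0.0306). Of 20 negative regulators and sheddases 18 were tested, and SH2B3 (LNK), an adaptor that restrains receptor signalling, was lower (-1.42, unadjusted p = 0.0473; 0.0515 with the block), by 7.29-fold in WM983A, 13.2-fold in WM278 and 8.51-fold in WM902B. None of 11 tested coreceptors and partners (0 of 15 listed) passed. The median log2 fold changes of these lists were 0.41 for ligands, -0.22 for other receptors, 0.07 for adaptors, -0.15 for regulators and -0.36 for partners, against 0.03 over all genes tested and 1.07 over the 9 tested members. Without the WM983A line none of these listed genes (0) passed, and without WM1617 10 did.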

How the data were processed

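RNA-seq had been run by the authors with oligo-dT selected RNA and single-end reads, aligned to GRCh38 with HISAT2 and quantified in StrandNGS. The annotation, tool versions and use of strand are not given in the sources used here. The raw values the authors deposited are expected counts for 57955 Ensembl genes per library. The normalized values the authors deposited are on a log2 scale and equal the within-line log2 ratio after DESeq size factors, so they were used as an alternative only. In sensitive WM983B 455 counts had been turned into dates by a spreadsheet; they were recovered from the deposited ratios of resistant WM983B, all 455 fitted the digits still visible, and no member was among them.

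Expected counts were rounded, filtered by filterByExpr (17288 genes kept) and tested with edgeR 4.0.16 (TMM, glmQLFit, glmQLFTest, two-sided) in R 4.3.3, comparing the 5 resistant with the 5 sensitive libraries. The fit has no block, because the test described for the RNA-seq data names no pairing term, although the lines form sensitive and resistant pairs. Alternatives were limma 3.58.1, DESeq2 1.42.0, other size factors, no filter, the 3 primary lines alone, each line left out, and cell line as replicate block. The block follows from each resistant line being derived from the sensitive line of its name; sample deviations from group means correlated at 0.38 to 0.675 within lines and at -0.064 in WM983A. Within-line log2 ratios add 1 to normalized counts. p-values cover the spread between these libraries, and lines of 1 patient are not independent. Intervals are exact binomial (Clopper-Pearson) at 95% and cover counting error only. Permutation tests used all 252 arrangements of 5 against 5 libraries and ignored the pairing of lines, so their p-values do not account for it. Exon lengths and overlaps are from GENCODE 44. The fits were also run on simulated counts drawn without line or patient effects, which cannot show how they behave on paired lines.

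The members and all gene lists were chosen with earlier results of these data known. Named were all members, their ligands, SOX10 and MITF, listed genes at an unadjusted p of at most 0.05 and 2-fold or at least 4-fold in the same direction in 3 lines, and the 2 genes most alike to each member changed 2-fold in 3 lines. Other names were chosen after their values were seen. Some genes that the rule or the lists include are not reported here. Other steps used scipy 1.17.1 and pandas 2.3.3 in Python 3.11.15.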

Additional observations from a re-analysis of the deposited data

Results flagged for a closer look

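Within each group of 5 libraries the highest and lowest level of each member were set against the others by Dixon's ratio on log2 levels. In 19 such groups with a level above the floor, where chance flags about 1 in 20, 2 were flagged, both by the resistant WM1617 library. EGFR was at 13.1 normalized counts in resistant WM1617, with the other 4 resistant libraries at 709 to 2657 (ratio 0.748 against a critical value of 0.71). AXL was at 148.3 in resistant WM1617, with the other 4 at 3252 to 9755 (ratio 0.737). The sensitive WM1617 library was low for AXL as well, at 123. No member had all primary lines moving one way and all metastatic lines the other.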

How the results depend on the processing

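The count of 3 members past the unadjusted threshold became 0 with the replicate block and 1 in the 3 primary lines, and ran from 1 to 5 over the fits without 1 line. The 3 listed genes outside the members became 10 without the filter on low counts, of more genes tested, and ran from 0 to 10 over the fits without 1 line. The number of members with 1 direction in all lines, 0, ran from 0 to 2 when 1 line was left out. Pooled log2 fold changes turned sign for MET (-0.28 by limma-voom, -0.43 with the replicate block, -0.13 to 1.53 without 1 line), for ERBB2 (0.33 in the primary lines, -0.64 to 0.30 without 1 line), for AXL (-0.53 to 0.92) and for PDGFRA (-0.34 to 3.91). Where the cause is not given by the line left out, it was not tested. The counts of members past 2-fold within each line and the 50 within-line log2 ratios stayed, the counts unchanged to within 1.5 times and the ratios within their counting intervals where more than 3 reads were counted, under RLE size factors, pseudocounts of 0.5 and 5 and the deposited ratios, and every exact permutation p kept its side of 0.05 under RLE and both pseudocounts. With 1 library per line and state, no within-line change has a replicate. At most 3 counts in both libraries left KIT uncompared in 3 lines, as well as NTF3 and, in most lines, HGF and EREG.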

Other observations

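Receptors outside the members held further within-line differences, chosen here after their values were seen. ROR2, a WNT5A receptor, was at least 40.9-fold higher in WM983A (0 and 105 reads) and 44.8-fold higher in WM902B, and 16.2-fold lower in WM1617. FLT4, the lymphatic VEGF receptor, was at least 35.8-fold higher in WM983A, where FLT1, a VEGF-A receptor, was at least 61.4-fold lower (215 and 0 reads). In WM278, FLT1 was 5.36-fold and KDR, the main VEGF-A receptor, 10.3-fold lower in the resistant library. DDR2, a receptor of fibrillar collagen, was 23.6-fold lower in WM983A and within 2-fold in the other 4 lines. MUSK was at least 4-fold higher on the pseudocount scale in 3 lines but did not exceed 7.70 normalized counts.

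The semaphorin and VEGF coreceptors NRP1 and NRP2 differed in opposite directions: NRP1 was 4.53-fold higher in WM983A and 2.80-fold in WM902B, and NRP2 3.54-fold and 3.46-fold lower in the same lines. In WM278, NRP1 was 2.38-fold lower and NRP2 2.23-fold higher. LYZ, one of the leukocyte markers, was lower in 4 resistant libraries, from 11.9 to 54.3 to at most 1.17 normalized counts. FLT1, DDR2, NRP1, NRP2 and LYZ were tested by edgeR and none passed an unadjusted p of 0.05 without the block, and LYZ did with it (log2 fold change -3.40, unadjusted p = 0.0384).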
